A study of Rattus norvegicus with 8 samples.

Results

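The glucocorticoid receptor and genes that answer to it or supply its ligand were followed in the soleus of rats, a hindlimb muscle that works against gravity in standing. The members were Nr3c1, Errfi1, Sgk1, Glul and Hsd11b1, and they were chosen by name: every probe set whose only platform gene symbol was one of these 5 belonged to the set. That gave 12 of 8740 probe sets, and 10 of the 12 passed the filter on low signal (5244 probe sets passed in all). The members, and the gene lists used below, were chosen with earlier results of these data known. Their counts beside the shares over all probe sets or genes are therefore descriptions and not independent support. The arrays came from female rats in 3 groups. Walked rats (2 pools) could not stand on their hindlimbs for 12 h and then walked on a treadmill for 2 h, in bouts of 30 min with 30 min in the cage between them over 4 h. Unloaded rats (3 pools) had those 12 h and no walking. Control rats (3 pools) had 12 h of ordinary cage activity. Each array was hybridised with RNA pooled from 8 to 10 rats, so the spread given here is between pools and not between rats. The sources used here give neither strain nor age, and the walked muscles were taken 4 h later in the protocol than the unloaded ones, so walking and elapsed time cannot be told apart.

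Glucocorticoids are adrenal steroid hormones that enter cells and bind a receptor held in the cytoplasm by chaperones. The bound receptor moves to the nucleus, binds DNA at response elements and switches target genes on or off. In skeletal muscle this pathway is known for lowering protein synthesis, raising protein breakdown and exporting nitrogen as glutamine, and it is an established part of muscle wasting in fasting, illness and disuse. Nr3c1 encodes the receptor itself. Hsd11b1 encodes the enzyme that regenerates active glucocorticoid from its inert 11-keto form inside cells. Errfi1 encodes an inhibitor of the EGF receptor family, Sgk1 a serum- and glucocorticoid-inducible protein kinase, and Glul glutamine synthetase; all of them are known glucocorticoid targets, and each also answers to other stimuli such as growth factors, stress or metabolites.

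The promoters of Errfi1 and Sgk1 are shown because these 2 members carried most of the changes described below. The windows span 250 bases before to 50 bases after an annotated RefSeq start, on build GRCr8, and 4 of the 5 members had at least 1 such window (8 windows in all; none was matched for Hsd11b1). The capitals mark TATAAA and the cAMP response element half-site TGACG, found on either strand.
Errfi1 promoter (GRCr8 chr5:166606591-166606890, plus strand): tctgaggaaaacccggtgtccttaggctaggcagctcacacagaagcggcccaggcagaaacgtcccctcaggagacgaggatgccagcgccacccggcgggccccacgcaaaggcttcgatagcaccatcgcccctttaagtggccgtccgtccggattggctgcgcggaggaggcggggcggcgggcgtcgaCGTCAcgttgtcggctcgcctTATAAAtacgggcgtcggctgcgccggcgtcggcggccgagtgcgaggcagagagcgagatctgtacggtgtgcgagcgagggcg
Sgk1 promoter, downstream start (GRCr8 chr1:24804782-24805081, minus strand): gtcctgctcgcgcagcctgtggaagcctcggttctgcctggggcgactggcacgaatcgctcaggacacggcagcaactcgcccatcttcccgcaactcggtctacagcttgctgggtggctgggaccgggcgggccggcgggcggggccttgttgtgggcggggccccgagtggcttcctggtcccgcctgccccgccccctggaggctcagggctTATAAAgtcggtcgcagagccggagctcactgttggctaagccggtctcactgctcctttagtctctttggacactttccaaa
Sgk1 promoter, upstream start (GRCr8 chr1:24807182-24807481, minus strand): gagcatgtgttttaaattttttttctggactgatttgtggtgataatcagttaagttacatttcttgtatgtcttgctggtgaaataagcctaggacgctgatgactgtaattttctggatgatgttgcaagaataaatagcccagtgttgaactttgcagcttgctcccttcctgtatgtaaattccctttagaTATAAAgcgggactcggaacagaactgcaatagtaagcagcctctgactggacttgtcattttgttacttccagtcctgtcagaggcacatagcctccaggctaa
Errfi1 had TATAAA in its only window and Sgk1 in the 2 of its 3 windows shown, while the Sgk1 window not shown held no match to any motif searched. TATAAA is a match that 14.2% of 33469 rat promoter windows of the same length hold. Errfi1 also held TGACG, a match that 21.2% of the windows hold, as did 1 of 2 windows of Glul. The glucocorticoid response element (AGAACA and TGTTCT with 3 bases of any kind between them), a looser form (GNACA and TGTNC with 3 such bases between) and the half-site AGAACA were searched on both strands and had 0 matches in the 8 windows. Among all windows, 0.0149%, 0.439% and 20.7% held them, in that order, and the looser form and the half-site overlap the full element. Absence of these letters says nothing about sites outside the windows.

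The values are scaled MAS5 signals on a linear scale, 1 per probe set. Skeletal muscle genes were measured in these samples: of 13 skeletal muscle markers 10 passed the filter, and the slow myosin heavy chain Myh7 averaged 7418 in walked, 6311 in unloaded and 5323 in control soleus. No other muscle was on these arrays, so the values do not tell soleus from other muscles. The arrays of 1 group correlated at 0.949 to 0.963 in log2 signal and arrays of different groups at 0.913 to 0.945, and control pool 3 lay apart from the other controls on the first principal component (-30.0 against -14.2 and -16.3). A log2 fold change is given with its standard error (SE) from limma, fitted to all 5244 tested probe sets, and the words rose and fell are used where the Benjamini-Hochberg adjusted p over all of them was under 0.05. Over all tested probe sets the median log2 fold change was -0.08 for unloaded against control, -0.05 for walked over unloaded and -0.11 for walked over control. These comparisons are not independent: the unloaded arrays enter both comparisons with an unloaded group, and the control and walked arrays likewise enter more than 1.

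Across the members, Errfi1 was highest after walking, intermediate after unloading alone and lowest in control soleus. Sgk1 was high after walking only. Glul, with the brightest probe sets, had a call on 1 of 4, and the probe sets of Nr3c1 and Hsd11b1 had no called change. In unloaded against control soleus 1 of the 10 tested member probe sets was called, a rise, where 7.3% of all tested probe sets were called and 3.99% rose. When walked was set against unloaded soleus 2 of 10 rose, where 4.2% were called and 2.73% rose. When walked was set against control soleus 4 of 10 rose, where 9.08% were called and 4.46% rose. Arrays that do not overlap between groups are common here: 10.2% of all tested probe sets had every unloaded array above every control array and 16.1% below, 13.5% had both walked arrays above every unloaded array and 21.8% below, and 15.5% had both walked arrays above every control array and 27.6% below. By the brightest probe set of each of the 5 genes, 1, 1 and 2 genes rose, against 3.71%, 2.35% and 3.74% of 3154 genes that rose in the same comparisons.

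**Figure D1:**
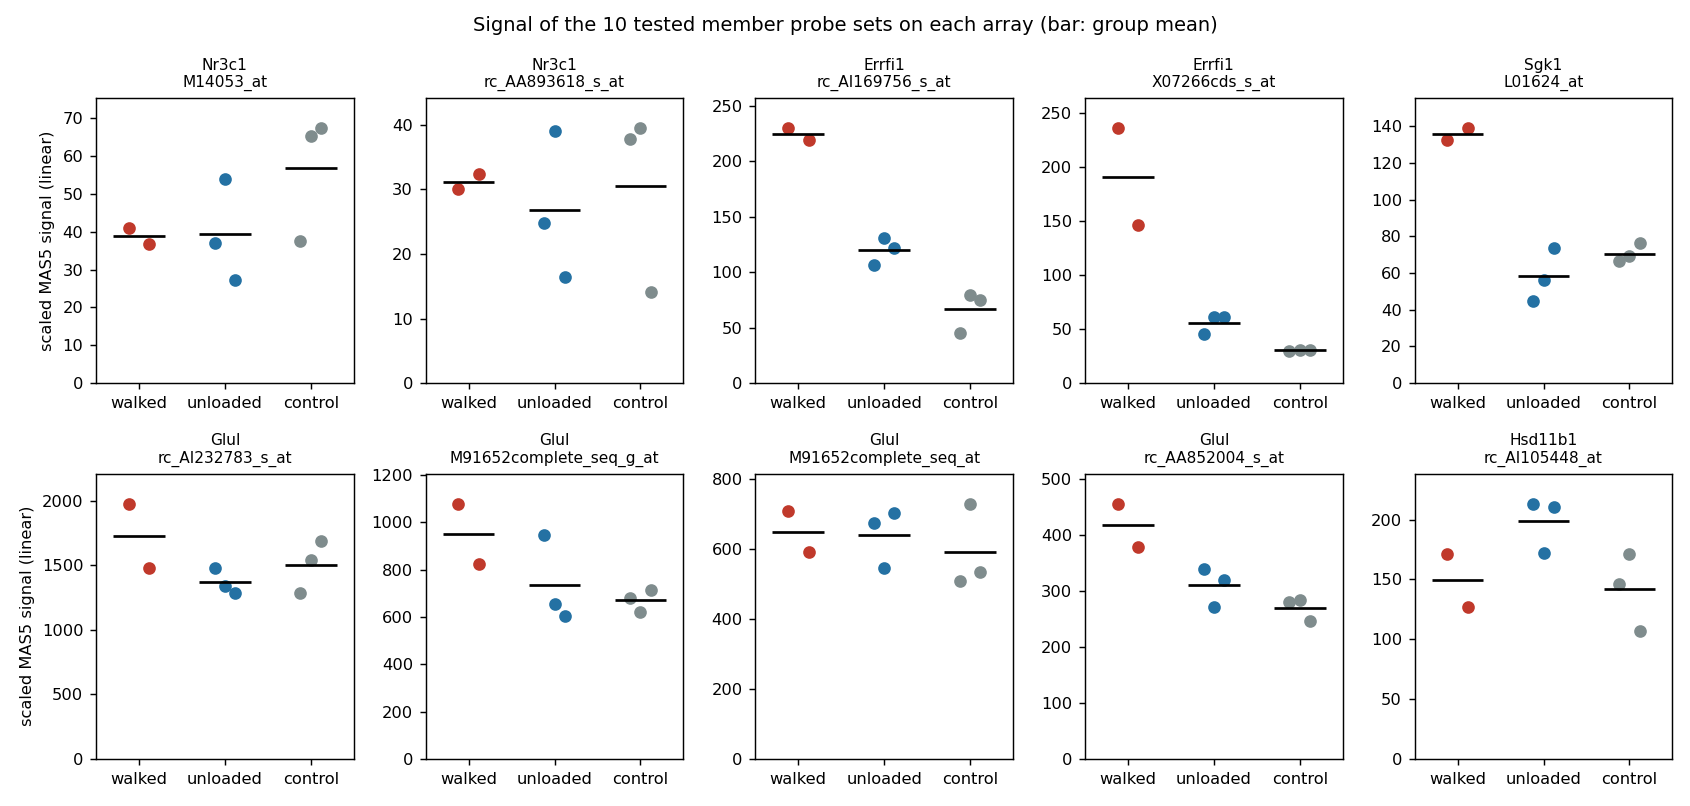
Scaled MAS5 signal (linear, vertical axis from 0) of the 10 tested probe sets of the 5 members, with 1 point per array and a bar at the group mean; groups run walked, unloaded, control from left to right. Errfi1 steps down from left to right on both probe sets, with walked signals of 147 to 235 and control signals of 29.7 to 79.3, Sgk1 stands out in the walked arrays only (133 and 139), and the Nr3c1 points of the groups overlap.

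The receptor gene is described first. On its brightest probe set, M14053_at, Nr3c1 had signals of 40.9 and 36.9 in walked soleus, 37.0, 53.8 and 27.3 in unloaded soleus and 37.6, 65.2 and 67.2 in control soleus. The groups overlapped, with control pools 2 and 3 above every other array. Unloaded against control had a log2 fold change of -0.53 ± 0.33 (adjusted p = 0.392), and its 95% interval ran from -1.25 to 0.19. Walked against control had -0.50 ± 0.37 (adjusted p = 0.4496), and walked against unloaded 0.04 ± 0.37 (adjusted p = 0.974). A second probe set, rc_AA893618_s_at, had 30.0 and 32.4 in walked soleus, 24.9, 39.1 and 16.5 in unloaded soleus and 37.9, 39.4 and 14.1 in control soleus. Here control pool 3 was the lowest array, whereas on M14053_at it was the highest, so the probe sets disagreed on which control was high. Its log2 fold changes were -0.13 for unloaded against control, 0.30 for walked over unloaded and 0.17 for walked over control, none of them called. The remaining probe set, rc_AI137538_at, was near the floor on every array, with 4.10 to 6.40, and was not tested. No change of receptor mRNA was therefore called, but intervals this wide include a fall to 0.420 of the control level and a rise to 1.14 of it after unloading on the brightest probe set.

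The gene that regenerates the hormone, Hsd11b1, was measured by 1 probe set. Its signal was 171 and 127 in walked soleus, 213, 172 and 211 in unloaded soleus, and 146, 172 and 107 in control soleus. All 3 unloaded pools lay above all controls, unloaded pool 2 (172.2) by little over control pool 2 (171.7), and both walked pools lay below all unloaded ones. Unloaded against control was 0.51 ± 0.20 (unadjusted p = 0.0299, adjusted p = 0.174), walked against unloaded -0.42 ± 0.23 (adjusted p = 0.382) and walked against control 0.09 ± 0.23 (adjusted p = 0.863). None was called. The 95% interval of the unloaded to control ratio was 1.04 to 1.94.

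Errfi1, the EGF receptor inhibitor, gave the largest changes among the members. On its brightest probe set, rc_AI169756_s_at, the signal was 229 and 219 in walked soleus, 107, 131 and 121 in unloaded soleus, and 45.4, 79.3 and 75.4 in control soleus. The groups did not overlap in any comparison. Walked soleus was 3.46 times control (log2 1.79 ± 0.24, adjusted p = 0.0017, 95% interval of the ratio 2.38 to 5.03). Unloaded soleus was 1.84 times control (0.88 ± 0.22, adjusted p = 0.0326), and walked was 1.88 times unloaded (0.91 ± 0.24, adjusted p = 0.0668), which missed the threshold. This probe set therefore had a called rise after unloading and a called rise after unloading with walking, each relative to control.

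The second Errfi1 probe set, X07266cds_s_at, had 235 and 147 in walked soleus, 45.4, 61.3 and 61.6 in unloaded soleus, and 29.7, 31.06 and 31.1 in control soleus. Again no group overlapped another, and the controls were nearly equal while the 2 walked pools differed by more than any other pair within a group. Walked soleus was 6.07 times control (2.60 ± 0.26, adjusted p = 0.00023, 95% interval 4.06 to 9.07) and 3.34 times unloaded (1.74 ± 0.26, adjusted p = 0.00258). Unloaded against control had 0.86 ± 0.24 with an adjusted p of 0.0508, close to the value of the first probe set but on the other side of the threshold. The remaining probe set, M23572_at, was dim and not tested: it had 5.90 and 6.11 in walked soleus, 6.79, 9.20 and 19.4 in unloaded soleus and 9.39, 23.3 and 19.2 in control soleus. Its order was the opposite of the bright probe sets. When all probe sets were tested without a filter, its walked against control value was -1.43 ± 0.55 (adjusted p = 0.239). The size of the Errfi1 rise thus differed by probe set, and its direction was shared by the 2 that passed the filter. The call in unloaded against control on rc_AI169756_s_at was lost without control pool 1 (0.63, adjusted p = 0.0728), without any 1 unloaded pool (0.81 to 0.96, adjusted p 0.0611 to 0.116) or without either walked pool, and the walked against unloaded call on X07266cds_s_at was lost without walked pool 1 (1.40, adjusted p = 0.0661), whereas the walked against control calls of both probe sets held without any 1 array.

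Sgk1, the kinase known for raising epithelial sodium channel activity and for phosphorylating FOXO factors, had signals of 133 and 139 in walked soleus, 44.6, 56.4 and 73.4 in unloaded soleus, and 66.7, 69.1 and 76.1 in control soleus. Both walked pools lay above all other arrays, and the unloaded and control pools overlapped. Walked soleus was 2.38 times unloaded (1.25 ± 0.23, adjusted p = 0.00968, 95% interval 1.67 to 3.40) and 1.92 times control (0.94 ± 0.23, adjusted p = 0.0326, 95% interval 1.35 to 2.75). Unloaded against control was -0.31 ± 0.21 (adjusted p = 0.445), with an interval of the ratio from 0.587 to 1.11. The value of Errfi1 in that same comparison lay above 0, with an interval of 0.40 to 1.36 on the log2 scale on its brightest probe set against -0.77 to 0.15 for Sgk1; the difference between the genes was not tested. The walked against unloaded call of Sgk1 was lost without walked pool 1 (1.29, adjusted p = 0.0775) and without walked pool 2 (1.22, adjusted p = 0.0995), and the walked against control call without any 1 control or walked pool (0.90 to 1.00, adjusted p 0.0514 to 0.177).

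Glul, glutamine synthetase, joins ammonia to glutamate and supplies the glutamine that muscle releases. Its 4 probe sets were the brightest among the members. On rc_AI232783_s_at the signal was 1974 and 1481 in walked soleus, 1483, 1337 and 1282 in unloaded soleus, and 1282, 1544 and 1687 in control soleus. The groups overlapped, and the log2 fold changes were -0.13 ± 0.15 for unloaded against control, 0.33 ± 0.17 for walked over unloaded and 0.19 ± 0.17 for walked over control (adjusted p 0.352 to 0.673). The unloaded to control ratio had a 95% interval of 0.728 to 1.15 on this probe set.

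The dimmest Glul probe set, rc_AA852004_s_at, had 456 and 379 in walked soleus, 339.9, 272 and 319 in unloaded soleus, and 281, 284 and 246 in control soleus. Both walked pools lay above all other arrays. It was the only Glul probe set with a call, a rise of 0.62 ± 0.16 in walked against control (adjusted p = 0.0389), and that call was lost without any 1 control or walked pool or without unloaded pool 1 (0.49 to 0.76, adjusted p 0.0504 to 0.23). M91652complete_seq_g_at had 1076 and 824 in walked soleus, 947, 653 and 605 in unloaded soleus, and 681, 619 and 715 in control soleus, with both walked pools above the controls. On the other probe sets walked against control was 0.49 ± 0.20 (M91652complete_seq_g_at, adjusted p = 0.155) and 0.15 ± 0.19 (M91652complete_seq_at, adjusted p = 0.682). M91652complete_seq_at had 707 and 590 in walked soleus, 674, 544 and 701 in unloaded soleus, and 507, 727 and 534 in control soleus, with full overlap. All 4 probe sets had a walked against control value above 0 (0.15 to 0.62), and 3 of the 4 were not called.

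**Figure D2:**
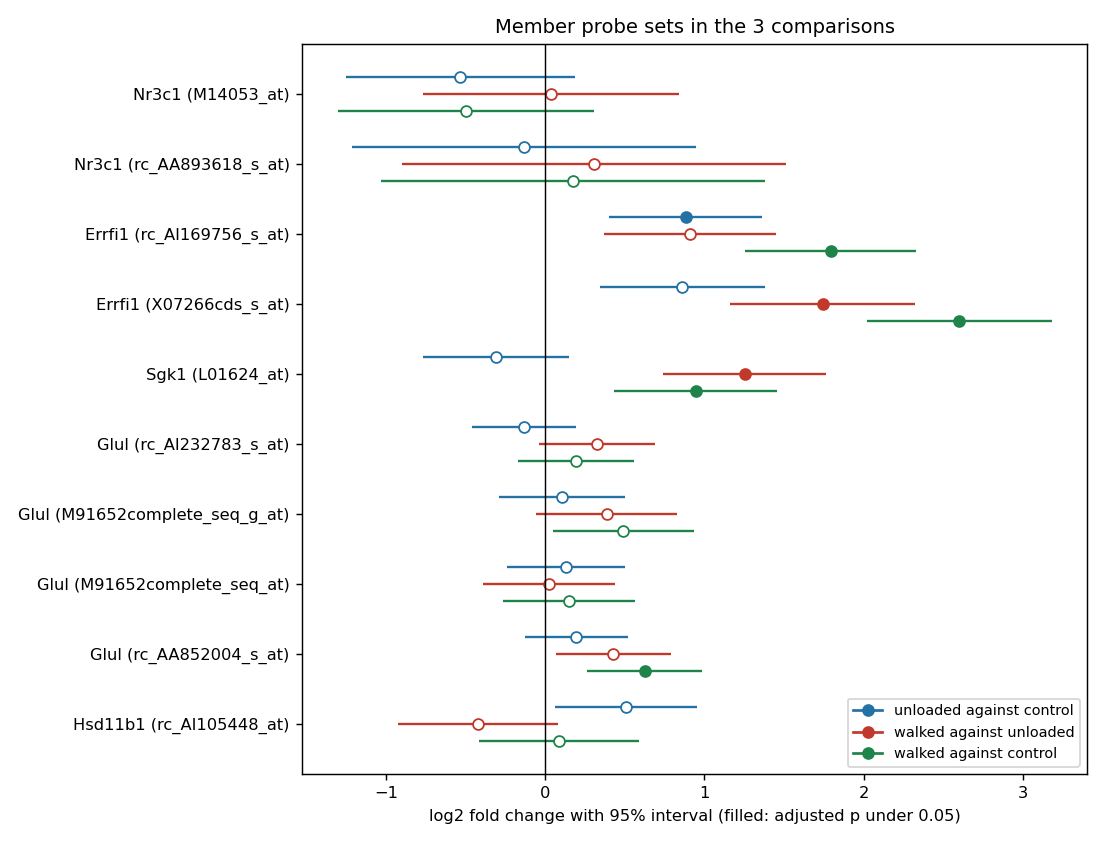
Log2 fold change (horizontal axis) with its 95% interval from limma for the 10 tested member probe sets, with 1 colour per comparison; filled points had an adjusted p under 0.05. The filled points are those of Errfi1, Sgk1 and 1 Glul probe set, all to the right of 0, and the intervals of Nr3c1 are the widest.

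Other parts of the pathway were taken from lists of genes by role. Of 9 genes of corticosteroid receptors and ligand handling, 7 had probe sets and 5 passed the filter (Nr3c1 and Hsd11b1 among them). The only call was a fall of Akr1d1, a reductase that inactivates steroid hormones in liver, to 28.4, 38.0 and 51.5 in unloaded soleus, against 70.2, 65.8 and 86.2 in control soleus (-0.95 ± 0.26, adjusted p = 0.0482). Over all genes 2.5% fell in that comparison. Akr1d1 was 56.1 and 55.8 in walked soleus and was not called against either group. Its call was lost in 7 of the 8 fits that left out 1 array (adjusted p 0.0721 to 0.157 for those of control pools 1 to 3, unloaded pools 1 and 2 and both walked pools). Nr3c2, the mineralocorticoid receptor, which also binds glucocorticoids, averaged 65.03 in walked, 64.9 in unloaded and 65.9 in control soleus (log2 values of -0.03 to 0.01 in the 3 comparisons). Serpina6, the plasma carrier of corticosteroids, was dim at 12.3 to 46.7 and not called. Hsd11b2, the enzyme that inactivates the hormone, and Abcb1a, an efflux pump for steroids among other compounds, were below the filter, with Hsd11b2 at 5.51 to 11.2 on all arrays.

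The receptor is folded and held ready for hormone by heat shock protein 90 and its partners. Of 8 measured genes of this list (13 listed, 16 tested probe sets), limma called 0 in unloaded against control (0 at an unadjusted p under 0.05). In walked over unloaded 1 rose, and in walked over control 0 were called (4 at an unadjusted p under 0.05, all higher). At the gene level 6.21%, 4.09% and 8.37% of all 3154 genes were called in these comparisons, and 2.5%, 1.74% and 4.63% fell. The rise was in Dnaja1, an Hsp70 co-chaperone, with 444 and 625 in walked soleus, against 299, 314 and 279 in unloaded soleus (0.83 ± 0.18, adjusted p = 0.027). The dimmer Dnaja1 probe set was at 0.55 without a call, and the call was lost without walked pool 2 (0.58, adjusted p = 0.27) or without any 1 unloaded pool (adjusted p up to 0.078). The list's median log2 fold change was 0.25 in walked against unloaded, beside -0.05 over all genes, with 7 of 8 genes above 0. Stip1, which bridges Hsp70 and Hsp90, had 1.03 (adjusted p = 0.0732), Dnajb1 0.70 (adjusted p = 0.0516) and the brightest probe set of the Hsp90 gene Hsp90ab1 0.32 (adjusted p = 0.276), and the immunophilin Fkbp4 had 0.16. Among 11 coregulators 3 were measured, Med1, Ncoa1 and Smarca4, and limma called 0 in each comparison; at an unadjusted p under 0.05 there was 1 in unloaded against control (Med1, 0.82), 0 in walked over unloaded and 1 in walked over control.

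**Figure D3:**
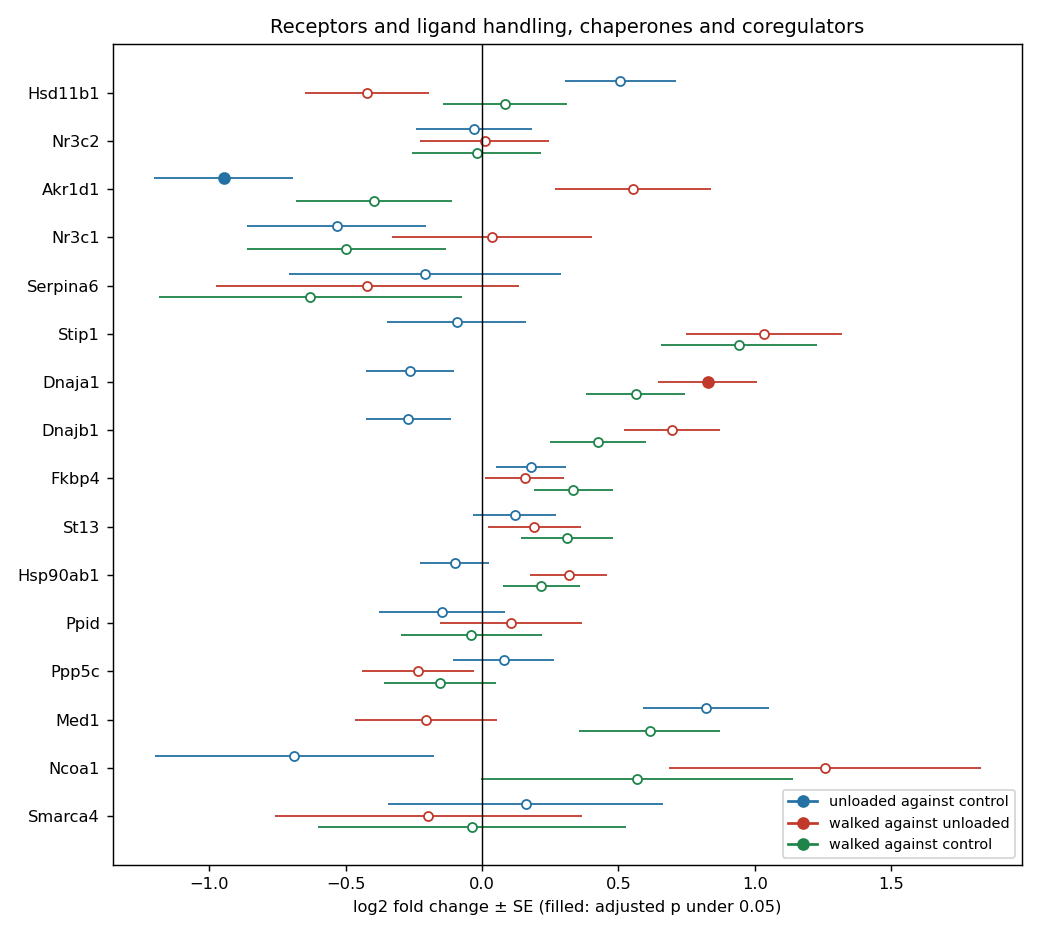
Log2 fold change ± SE (horizontal axis) of 16 genes for receptors and ligand handling, chaperones, and coregulators, each by its brightest tested probe set, in the 3 comparisons; filled points had an adjusted p under 0.05. The filled points are Akr1d1 in unloaded against control and Dnaja1 in walked against unloaded, and Nr3c2 sits near 0 in all 3 comparisons.

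Genes that glucocorticoids are known to induce in muscle or other tissues formed a list of 33, of which 15 passed the filter; Errfi1, Sgk1 and Glul are among the 15, so the list is not separate from the members. In unloaded against control 5 of 15 rose and 1 fell, where 3.71% of all genes rose and 2.5% fell. The median was 0.12 beside -0.08 over all genes. The rises were in the ubiquitin ligase Trim63 (0.97 ± 0.13), the stress gene Gadd45a (1.27 ± 0.20), the transcription factor Klf9 (0.90 ± 0.15), Errfi1 and the pyruvate dehydrogenase kinase Pdk4 (0.57 ± 0.15). The fall was in Dusp1, a MAP kinase phosphatase, at 76.6, 119 and 132 in unloaded soleus, against 333, 311.5 and 356 in control soleus (-1.65 ± 0.19, adjusted p = 0.00045). The dimmer Trim63 probe set, rc_AI639465_r_at, was at 0.46 in unloaded against control (adjusted p = 0.315) with overlapping arrays, and at 0.97 in walked against unloaded (adjusted p = 0.0803), neither called; its walked against control rise was 1.43 (adjusted p = 0.0111). Anxa1 rose in unloaded against control on S57478cds_s_at (1.04, adjusted p = 0.0249), with 0.64 and no call on its brightest probe set. Genes of the list thus had called changes in both directions, with Dusp1 down on all 3 of its probe sets (-1.65 to -1.04).

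In walked against unloaded 3 of the 15 rose and 0 fell, where 2.35% of all genes rose and 1.74% fell. The median was 0.33 beside -0.05 over all genes. The genes that rose were Dusp1 (2.39 ± 0.22, adjusted p = 5.31e-05), Trim63 (1.24 ± 0.14, adjusted p = 0.000243) and Sgk1. In walked against control 5 rose and 0 fell, where 3.74% of all genes rose and 4.63% fell. The median was 0.58 beside -0.11 over all genes. Here the rises were in Trim63 (2.21 ± 0.14), Errfi1, the cell cycle inhibitor Cdkn1a (1.37 ± 0.27), Sgk1 and the phospholipid-binding protein Anxa1 (0.82, adjusted p = 0.0374). By probe set 7 of 33 rose over unloaded and 13 of 33 over control, beside 2.73% and 4.46% of all tested. Irs2 on AF083418_at rose most, by 3.64 over unloaded signals of 6.90 to 7.90 (adjusted p = 0.00291) and 2.66 over control (adjusted p = 0.0181). Its signals were 79.6 and 103 in walked soleus and 13.5 to 15.0 in control soleus. Every unloaded and control signal lay under the filter threshold, which was set on the mean over all arrays. This probe set was therefore tested only because its walked signals were high, and it is counted among the 7 and the 13. The brightest Irs2 probe set had 0.58 and 0.66 without a call. Cebpb rose over control on S77528cds_s_at (0.91, adjusted p = 0.00986), with 0.43 and no call on its brightest. The order of the groups differed among the genes called by their brightest probe set. Trim63 had the same order of groups as Errfi1, with 3231 and 2838 in walked soleus, 1218, 1195 and 1441 in unloaded soleus and 684, 682 and 604 in control soleus. Dusp1 was lowest in the unloaded pools given above and highest in the walked pools, with 564 and 553 in walked soleus. Its walked against control value was 0.75 on this probe set without a call (adjusted p = 0.0542). On its dimmer probe sets Dusp1 rose there, by 1.17 on S74351_s_at (adjusted p = 0.006) and 1.08 on S81478_s_at (adjusted p = 0.0204). Klf9 was instead highest in the unloaded pools, with 631 and 671 in walked soleus, 1069.7, 943 and 769.8 in unloaded soleus and 439, 498 and 542 in control soleus; its walked against unloaded value of -0.50 was not called (adjusted p = 0.139). Gadd45a likewise had 175 and 237 in walked soleus, against 323, 259.9 and 428 in unloaded soleus (-0.70, adjusted p = 0.121), and Pdk4 -0.56 (adjusted p = 0.0915). The walked against control call of Cdkn1a held under 15 of 18 alternative settings (1.22 to 1.60). Its dimmer probe set had 1.68 there without a call (adjusted p = 0.154). Anxa1 and Pdk4 were not followed under the alternative settings, so the stability of their calls is not known. Fkbp5, Tsc22d3, Per1 and Fbxo32, often used as readouts of the receptor, are not analysed here.

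**Figure D4:**
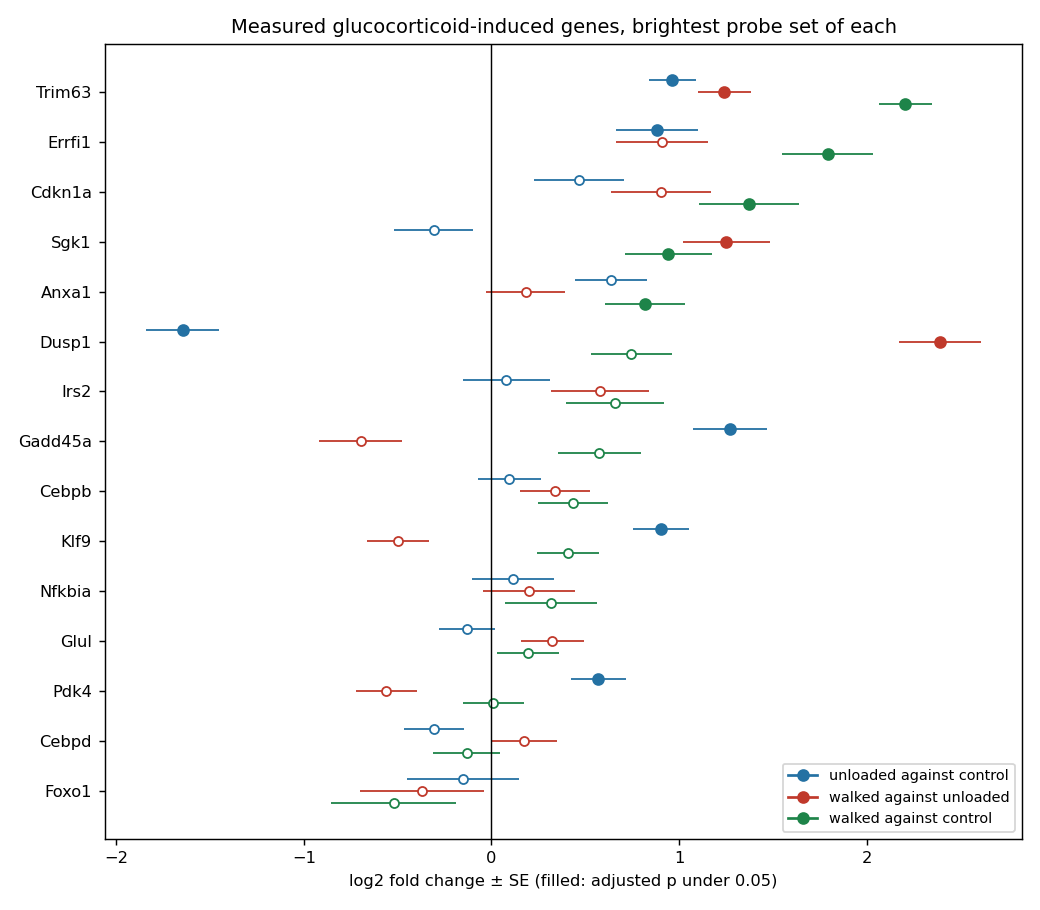
Log2 fold change ± SE (horizontal axis) of the 15 measured glucocorticoid-induced genes, each by its brightest tested probe set, in the 3 comparisons and ordered by walked against control; filled points had an adjusted p under 0.05. Trim63 and Errfi1 lead in walked against control (2.21 and 1.79), and Dusp1 has the only filled point left of 0, in unloaded against control (-1.65).

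Of 13 genes that glucocorticoids are known to repress, 7 passed the filter. In unloaded against control limma called 0 (1 at an unadjusted p under 0.05), with a median of -0.37 beside -0.08 over all genes and 1 of 7 above 0. The chemokine Ccl2 was the only call in the other comparisons, with 96.7 and 202 in walked soleus, 43.0, 40.7 and 30.8 in unloaded soleus and 69.5, 58.8 and 60.5 in control soleus. It rose in walked against unloaded (1.89 ± 0.31, adjusted p = 0.00415) and in walked against control (1.16 ± 0.31, adjusted p = 0.0409), while its dimmer probe set had 1.27 and 0.99 without a call. Without walked pool 2 these values were 1.36 (adjusted p = 0.0733) and 0.62 (adjusted p = 0.368), and the walked against control call was also lost without any 1 control pool or without unloaded pool 1 or 2 (adjusted p 0.0518 to 0.0942).

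The partners of each target were followed too. Errfi1 binds and inhibits receptors of the EGF family. Of 14 genes for these receptors, their ligands and adaptors, 7 passed the filter. Limma called 0 in unloaded against control (1 at an unadjusted p under 0.05), where 6.21% of all genes were called. In walked against unloaded 1 rose, where 2.35% of all genes rose, and in walked against control 2 rose, where 3.74% did. Hbegf rose in both comparisons and Src over control only. Over the unloaded and control arrays alone, each had a mean signal slightly under the filter threshold. Both were therefore tested only because their walked signals were high, so the filter favoured these rises. The same filter acted on the shares over all genes. Hbegf, a ligand of the EGF receptor, had 153 and 194 in walked soleus, 24.4, 11.9 and 19.995 in unloaded soleus and 13.6, 45.5 and 28.7 in control soleus. Its rise was 3.26 ± 0.50 over unloaded and 2.73 ± 0.50 over control; without walked pool 2 the adjusted p was 0.0627 and 0.103, and without walked pool 1 that over control had 0.0596. The tyrosine kinase Src had 52.0 and 65.8 in walked soleus, against 11.1, 13.4 and 21.5 in control soleus (1.99 ± 0.42, adjusted p = 0.0182; 0.0825 and 0.157 without walked pool 1 or 2). Erbb2 and Erbb3 were not called, and Egfr itself was below the filter with a signal of 8.90 to 30.5.

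Among 10 measured genes of the kinase family of Sgk1, its activators and substrates, Sgk1 was the only call in any comparison by the brightest probe set, a rise. Over all genes 6.21% were called in unloaded against control and 4.09% in walked against unloaded. In walked against control 8.37% were called, and 4.63% fell. Sgk2 had 54.3 in walked, 50.3 in unloaded and 68.3 in control soleus, with no call, and Nedd4, a ubiquitin ligase, had -0.50 in walked against control (adjusted p = 0.0630). Akt2 fell in walked against control on its dimmer probe set (-0.74, adjusted p = 0.0486), with -0.32 and no call on its brightest. The sodium channel subunits Scnn1a and Scnn1b were below the filter. Among 8 measured genes of glutamine and glutamate metabolism the only call by the brightest probe set was a fall of Bcat2, the mitochondrial branched-chain aminotransferase, to 137 and 88.5 in walked soleus, against 188, 292 and 237 in control soleus (-1.10 ± 0.24, adjusted p = 0.021). The Bcat2 call was lost without control pool 2 (-0.94, adjusted p = 0.0587) or walked pool 2 (-0.78, adjusted p = 0.184) and in the fit blocked on pool number (-1.11, adjusted p = 0.0502). The aminotransferases Got1, Got2 and Gpt had walked against control values of 0.19, 0.17 and -0.01, none called. Glud1 rose in walked against control on its dimmest probe set (1.16, adjusted p = 0.0385). Its brighter probe sets had -0.20 and -0.34 there without a call.

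The genes whose course over the 8 arrays was most like each member were found by the Pearson correlation of log2 signal with the member's brightest probe set, among 3153 other genes; with so many genes and 8 arrays that share their groups, high values are common. For Errfi1 they were Urgcp (0.95), Src (0.95) and Drd5 (0.94). For Sgk1 they were Dnajb1 (0.98), the ribosome rescue factor Pelo (0.97) and the transcription factor Runx1 (0.96). Dnajb1 had 166 and 176 in walked soleus, 90.3, 110.7 and 117 in unloaded soleus and 127, 125 and 129.9 in control soleus, which is the order of the group means of Sgk1. For Nr3c1 they were Gon7 (0.95), the tyrosine kinase Lck (0.93) and Akr7a2 (0.92), for Glul Acaca (0.94), Syt3 (0.92) and LOC102549726 (0.88), and for Hsd11b1 the stress kinase Mapk12 (0.95), Magt1 (0.95) and Nfib (0.94).

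Whole muscle holds other cells, and in pooled tissue a smaller share of a cell type and less RNA per cell cannot be told apart. The summed signal of the 10 measured skeletal muscle markers was 36663.5 to 43202.6 in walked, 29937.9 to 41255 in unloaded and 25919.4 to 28413.2 in control soleus, so the walked and unloaded arrays lay above the controls, and 5 of the 10 rose in walked against control (Acta1, Ckm, Myl2, Myl3 and Tnni1, by 0.58 to 1.07); Myh2 fell in walked against unloaded (-0.64). The summed signal of 5 of 8 adipocyte markers was 1404 to 1781 in walked, 1480.3 to 1744 in unloaded and 1429 to 1775 in control soleus, with a rise of Fabp4 in unloaded against control (1.52 ± 0.20). Most of these sums came from the Lep probe set D49653_s_at (731 to 1126 over the arrays). The other tested Lep probe set, D45862_g_at, had 57.6 to 80.1, so the sums say little about adipocyte content. Plin1 was below the filter and Adipoq is not analysed here. Of 8 fibroblast and matrix markers all were measured, with sums of 7320.5 to 7402 in walked, 7861 to 12211 in unloaded and 6799.5 to 9891 in control soleus. By the brightest probe set Dcn and Lum rose in unloaded against control, Dcn rose in walked against control, and Col1a2 and Thy1 fell there. On Z78279_at Col1a1 fell in walked against unloaded (-0.94, adjusted p = 0.0371) and against control (-1.22, adjusted p = 0.00829). On X59859_r_at Dcn fell in walked against unloaded (-1.19, adjusted p = 0.00766). In walked against unloaded the brightest probe sets of Col1a1 and Dcn had -0.34 and -0.32 without a call. Sums for 3 of 8 endothelial markers (277 to 308 in walked, 279.7 to 300.4 in unloaded, 290.5 to 355 in control soleus), 6 of 9 leukocyte markers (784.5 to 839, 812.5 to 989 and 854 to 949.9 in the same order) and 5 of 6 smooth muscle markers (4587 to 5706, 3711.5 to 4923 and 4008 to 4783) are given beside them, with a rise of Cd48 (1.40) and a fall of Tagln (-0.96) in unloaded against control and a fall of Cd74 (-0.65) in walked against control. Des, also a skeletal muscle marker, was the largest part of the smooth muscle sums (2854 to 4256, 2518 to 3538 and 2291 to 2427). These sums therefore partly follow muscle fibre signal. Acta2 fell in unloaded against control on its dimmest probe set (-2.42, adjusted p = 0.0278), with -0.64 and no call on its brightest. Sums for 3 of 7 Schwann cell markers were 402.7 to 419.5, 368.7 to 426 and 431 to 477 in that order, with a fall of Prx (-1.23) in walked against unloaded, and those for 4 of 6 red cell markers, with no call, were 4376 to 6106, 5851 to 8266 and 6174.5 to 7402. Vwf and Itgam were below the filter, and no marker that passed it was at 0. The part of these shifts in the Errfi1, Sgk1, Glul and Hsd11b1 values was not tested.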

How the data were processed

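RNA from pooled soleus was hybridised to 8 one-colour Affymetrix arrays, labelled from 10 microg total RNA per the labels. Each probe set has 1 deposited intensity per array, on a linear scale, computed by the authors using MAS5 (per the submitters' processing notes). Its version and target intensity were not given in the sources used. This method corrects for mismatch or background signal, so low values are noisy. Each array was scaled to a common 2% trimmed mean (148.6), values under the 10th percentile (4.10) were raised to it, and log2 was taken. Probe sets under the 40th percentile of mean signal (25.8) were left out, which kept 5244 of 8740. The model of limma 3.58.1 (R 4.3.3; lmFit, contrasts.fit, eBayes with trend, two-sided) was fitted to all 8 arrays with 3 groups, and p-values were adjusted by Benjamini-Hochberg. The number of arrays limits the precision; a single-gene exact permutation test could not go below p = 0.1. Intervals are 95% from the fit.

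Gene names came from the platform annotation: 7006 probe sets carried 1 symbol, 308 several and 1426 none, and 6985 of the 7006 matched the RefSeq gene table of GRCr8. Probe sets ending in _s_at, _f_at or _g_at may hybridise with more than 1 transcript. List counts use the brightest tested probe set of a gene (3154 genes). The members and lists were chosen with earlier results of these data known. Named genes were all members, up to 4 called genes per list and comparison by smallest p, and the receptor and ligand genes. They also included 6 readout genes where measured (Fkbp5, Tsc22d3, Per1, Klf9, Fbxo32 and Trim63) and the 3 genes most correlated with each member. Pdk4, Anxa1, Stip1, Hsp90ab1, Fkbp4, Med1, Ncoa1, Smarca4, Scnn1a, Scnn1b, Sgk2 and Nedd4 were added after their values were seen. So were Got1, Got2, Gpt, Erbb2, Erbb3, Egfr, Irs2, Cebpb, Acta2, Myl3, Glud1, Akt2 and Col1a1. The pool number pairs no samples by the labels, and same-numbered pools did not deviate together (correlations of -0.07 to 0.05 over 7 pairs). The procedure was tested on simulated data. Alternatives changed the scaling, floor, filter, moderation, samples fitted, block, probe set summary and arrays included. Promoter windows came from RefSeq (GRCr8).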

Additional observations from a re-analysis of the deposited data

How the results depend on the processing

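The rises of Errfi1 in walked against control kept their call under every alternative tried, at 1.54 to 2.20 on rc_AI169756_s_at (18 settings) and 2.26 to 2.94 on X07266cds_s_at (17 settings). Each other call among the members was lost under at least 1 alternative. In unloaded against control the count of member probe sets called was 1, and it was 0 with eBayes without trend, with no filter on low values and with only the 2 groups compared, 2 after quantile normalization, and 0 to 1 with 1 array left out. In walked against unloaded it was 2, and 0 to 3 with 1 array left out; averaging the probe sets of each gene called 2 genes, against 1 by the brightest. In walked against control it was 4, and 2 with eBayes without trend and with no filter, and 2 to 4 with 1 array left out. Over all probe sets the counts were 383, 220 and 476 in the 3 comparisons in that order. The first was 243 without trend, 228 with no filter and 230 to 405 with 1 array left out, the second 120 to 261, and the third 211 without trend, 216 with no filter, 251 with the block and 104 to 504. Of 286 alternative values for pathway genes 43 lost their call, and 0 changed sign. These genes were taken from those already called in the same comparison, so changes of sign were unlikely from the outset.

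With the pool number as a replicate block, the counts of member probe sets called were 1, 2 and 3 in the 3 comparisons, against 1, 2 and 4. The block ended the walked against control call of Glul on rc_AA852004_s_at (0.60, adjusted p = 0.0764), and it ended those of Bcat2 and Ccl2 (1.07, adjusted p = 0.0971). Member values that were not called changed sign in 18 cases. With 1 array left out, values ran as follows. Glul on M91652complete_seq_at in walked against unloaded ran from -0.1087 (without walked pool 1) to 0.153, and was -0.0901 without unloaded pool 2; after quantile normalization it was -0.0095. On M91652complete_seq_g_at in unloaded against control it ran from -0.0934 (without unloaded pool 1) to 0.2305. On rc_AI232783_s_at in walked against control it ran from -0.0131 (without walked pool 1) to 0.4014, and in unloaded against control it was 0.0746 when probe sets were averaged. Hsd11b1 in walked against control ran from -0.1309 (without walked pool 1) to 0.3018, and was -0.1015 without control pool 3. Nr3c1 on M14053_at in walked against unloaded ran from -0.1997 (without unloaded pool 3) to 0.2901, and was -0.039 without walked pool 1 and -0.008 with the block. On rc_AA893618_s_at it ran from -0.6156 to 0.1758 in unloaded against control (0.0971 without control pool 1, 0.1264 without control pool 2), from -0.3106 to 0.4314 in walked against control (-0.2214 with the block) and from -0.0015 to 0.6214 in walked against unloaded (-0.0907 with the block). The causes were not tested.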
